A study of Homo sapiens with 18 samples.

Results

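Of the 21411 genes counted in spheroid cultures of the triple-negative breast cancer (TNBC) line MDA-MB-231, 10 genes that hold cells at, or let them past, the entry into the cell cycle were followed by their gene symbols. They are the CDK inhibitors CDKN1A, CDKN1B and CDKN1C, the D-type cyclins CCND1, CCND2 and CCND3, and the quiescence-associated or antiproliferative genes CCNG2, RBL2, TP53INP1 and BTG1. All 10 had 1 row each in the tables and passed the filter on low values in every comparison. The study asked how the Notch ligand Jagged1, encoded by JAG1, shapes TNBC cells, and it changed JAG1 in 3 ways in one cell line. Messenger RNA was sequenced after 7 days in Matrigel, with 50000 cells seeded per culture, in 6 conditions of 3 biological replicates each, which gave 18 libraries.

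The parental line with its own JAG1 is named Jag1WT. Its Cas9-edited derivative, Jag1KO, was pooled from single-cell clones. Jag1KO+rescue cells are Jag1KO cells that carried a plasmid with JAG1 cDNA, and Jag1KO+ctrl cells are Jag1KO cells with the empty plasmid, both kept in G418. In the siRNA pair, parental cells received either a nontargeting siRNA (siCtrl) or siRNAs against JAG1 (siJag1). Clones, plasmid selection and transfection thus separate the 3 pairs of conditions, while line, matrix and culture time were the same in all of them.

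Libraries held between 10330581 and 18327890 reads on genes (median 15168046). JAG1 was at 433 to 657 CPM (read counts scaled to the size of the library) in the Jag1WT, Jag1KO+rescue and siCtrl libraries and at 110 to 205 CPM in the Jag1KO, Jag1KO+ctrl and siJag1 libraries, so that the transcript matched the label in all 18. Markers of this line were present (VIM from 2180 to 4950 CPM), and of 5 genes that the line should lack or hold at low levels, the estrogen receptor gene ESR1 was at 0 in 17 of the 18 libraries while GATA3 was at 5.25 to 11.5 CPM. The 5 fibroblast markers summed to 3.12 to 10.9 CPM, most of it COL1A1 (2.66 to 10.0 CPM), with DCN at 0 in 15 libraries. Among the leukocyte markers PTPRC was at 0 in 11 libraries and CD68, a macrophage gene that tumor cells can also express, at 88.9 to 209 CPM. Of the endothelial markers, CDH5 was at 0 in 14 libraries and PECAM1 at 0.954 to 15.1 CPM, and the part of other cells in the results was not tested.

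D-type cyclins bind CDK4 and CDK6 when growth signals arrive, and these kinases phosphorylate RB1 and its relatives so that E2F factors can switch on the genes of DNA replication. CDKN1A (p21), CDKN1B (p27) and CDKN1C (p57) bind cyclin-CDK complexes and restrain them. RBL2 (p130) is the pocket protein of the DREAM complex, which represses cell cycle genes in resting cells, and MKI67, which encodes Ki-67, is transcribed in cycling cells and low in resting ones, so it served as the measure of proliferation in each library.

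The genes lie on several chromosomes of hg38. CDKN1A is at chr6:36676460-36687337 on the plus strand, CDKN1B at chr12:12685498-12722369 on the plus strand and CDKN1C at chr11:2883213-2885775 on the minus strand. CCND1 is at chr11:69641156-69654474 and CCND2 at chr12:4269771-4305353, both on the plus strand, and CCND3 at chr6:41934934-42050357 on the minus strand. CCNG2 is at chr4:77157207-77433388 and RBL2 at chr16:53433977-53491648, both on the plus strand, and BTG1 is at chr12:92140278-92145846 on the minus strand. These are the bounds of the genes in the GENCODE 44 annotation.

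Promoter sequence was held for 6 of the genes in the RefSeq set on GRCh38.p14, and CDKN1C, CCND1, CCND2 and TP53INP1 had no entry. The windows of CCNG2 and CDKN1B are shown because their slopes on MKI67, described further on, had opposite signs, although neither call held with the replicate number in the fit. Each run gives the 250 bases before the transcription start, 5′ to 3′. Capitals mark every match, on either strand, to 3 motifs. The first is the cell cycle homology region (CHR), searched as the letters TTTGAA and, in its other common form, as the letters TTTAAA. The second is the CCAAT box, bound by the factor NF-Y, and the third is the core motif of FOXO factors, searched as GTAAACA. No match overlapped another.
CCNG2: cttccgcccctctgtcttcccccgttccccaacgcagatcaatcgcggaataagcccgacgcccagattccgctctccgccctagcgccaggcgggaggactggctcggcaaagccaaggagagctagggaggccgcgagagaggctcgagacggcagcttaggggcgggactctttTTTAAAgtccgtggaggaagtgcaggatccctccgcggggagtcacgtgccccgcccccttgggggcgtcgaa
CDKN1B: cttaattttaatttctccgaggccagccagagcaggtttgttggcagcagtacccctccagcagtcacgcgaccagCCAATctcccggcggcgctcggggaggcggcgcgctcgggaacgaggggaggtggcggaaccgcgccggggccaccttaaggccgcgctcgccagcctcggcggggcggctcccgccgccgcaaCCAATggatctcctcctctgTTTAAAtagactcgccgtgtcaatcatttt

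The CCNG2 window, chr4:77156957-77157206 on the plus strand, overlapped no annotated gene. The CDKN1B window, chr12:12717118-12717367 on the plus strand, overlapped no exon and lay within the CDKN1B gene, whose annotated start is further upstream. The CHR letters were found in the windows of CCNG2, CDKN1B and RBL2, that is in 3 of the 6 genes, and in 21.9% of all 35116 windows of the set. CCAAT was found in the windows of BTG1, CCND3, CDKN1B and RBL2 and in 32% of all windows, and the FOXO core in that of BTG1 and in 2.98% of all. CCND3 and RBL2 have several windows, and a gene was counted once if any of them held the letters. CHR and CCAAT letters are thus common in such windows. Further motifs were searched and are not marked in the runs. The GC box (GGGCGG) was found in the windows of BTG1, CCND3, CCNG2, CDKN1A and CDKN1B and in 42.6% of all windows. The RBPJ motif (GTGGGAA) was found in none of the 6 genes and in 5.43% of all windows.

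Per kilobase of transcript, the members differed widely in level (CPM per kilobase, so that genes can be compared). CDKN1A had the highest median over the 18 libraries, at 128 CPM per kilobase, followed by CCND1 at 93.8 and BTG1, an antiproliferative adaptor that recruits the CCR4-NOT deadenylase, at 70.3. The ranges of these neighbors overlapped, and CDKN1A was above CCND1 in 15 of the 18 libraries and CCND1 above BTG1 in 14. A gap followed, since BTG1 was above CDKN1B, at 19.0, in all 18 libraries without overlap of the ranges.

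CCND3 (18.8 CPM per kilobase) was not separated from CDKN1B, which was the higher of the pair in 10 of the 18 libraries. CCNG2, a cyclin without a strong CDK partner that is raised in resting cells, had a median of 10.3 CPM per kilobase and lay below CCND3 in all 18 libraries. CCND2 at 4.77, RBL2 at 4.59 and TP53INP1, a stress-induced antiproliferative gene, at 3.93 followed, and CCND2 was above RBL2 in 9 of the 18. CDKN1C was last at 1.12 CPM per kilobase, below TP53INP1 in all libraries, and rested on only 20 to 68 reads per library, so that its values carry the largest counting error. Among the D-type cyclins the median order was therefore CCND1, CCND3, CCND2, and among the CDK inhibitors CDKN1A, CDKN1B, CDKN1C.

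CCND2 varied most over the libraries, by 11.4-fold from the lowest to the highest CPM, against 4.10-fold for CDKN1C, 3.66-fold for CCNG2 and 1.84-fold for CCND1. MKI67 itself varied 17.7-fold. The share of variance on the log2(CPM + 1) scale that lay within conditions was 49.3% for CCND2 and 52.6% for CCNG2. It was highest for CDKN1C (92.8%), CCND1 (84.0%), TP53INP1 (81.5%) and CDKN1B (71.9%) and lowest for RBL2 (39.5%) and CDKN1A (42.7%). For a gene that does not differ between conditions, most but not all of the variance is expected within them, since means of 3 libraries vary too. The share over all genes was not computed.

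**Figure D1:**
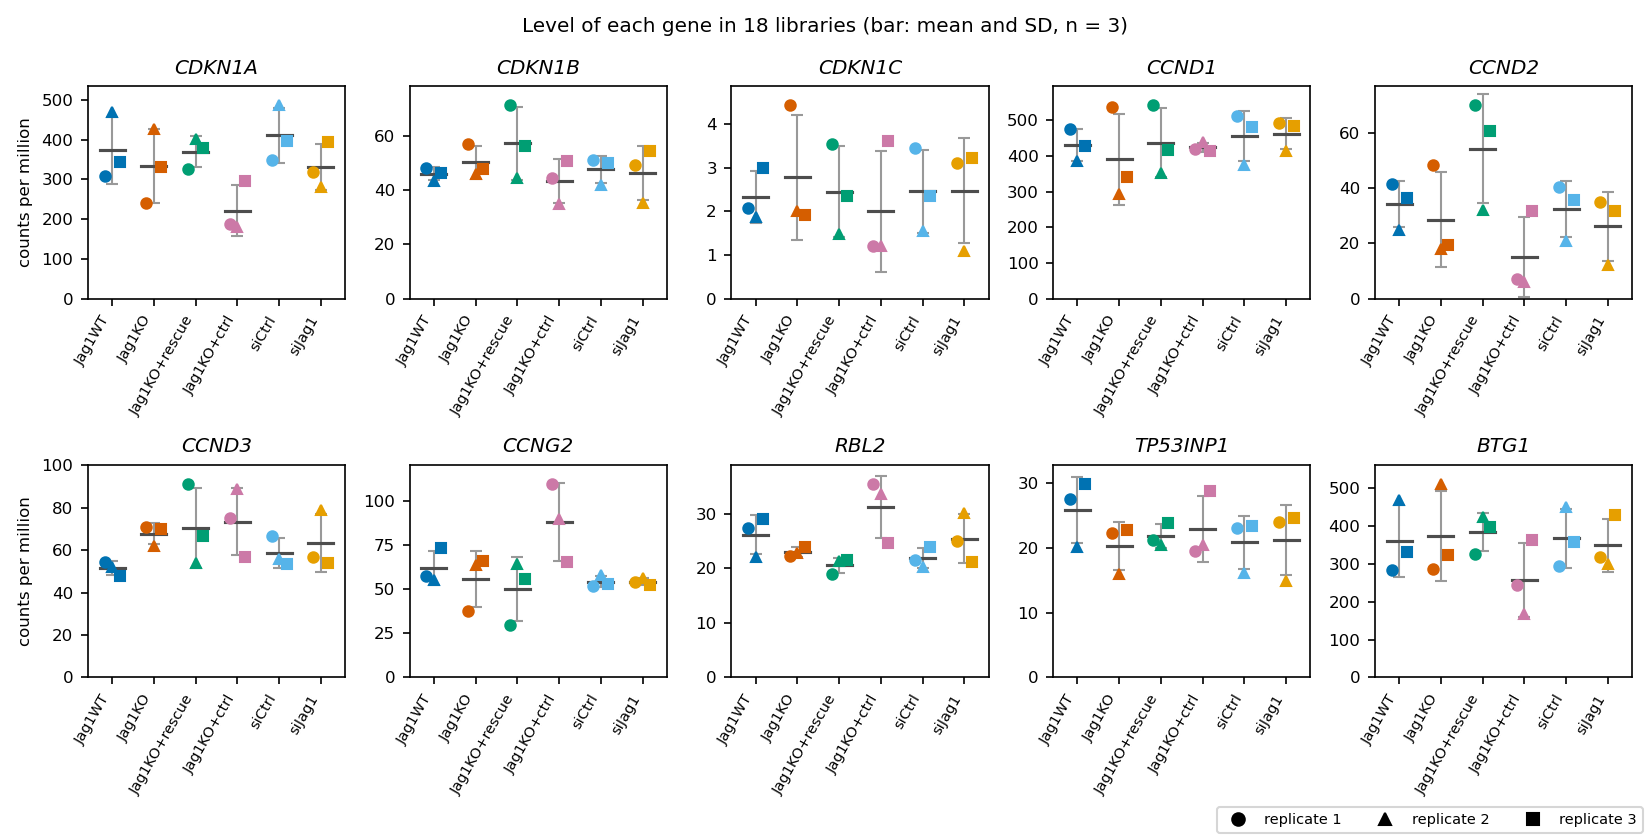
Level of each of the 10 genes in the 18 libraries in CPM on linear axes that start at 0, by condition, with circles, triangles and squares for replicates 1, 2 and 3 and a bar for the mean and SD (n = 3). CCND2 was at 7.1 and 6.2 CPM in replicates 1 and 2 of Jag1KO+ctrl, and CCNG2 and RBL2 were at their highest in the same libraries.

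MKI67 differed widely among replicates. It was at 37.9, 115 and 33.1 CPM in the Jag1WT libraries, at 28.9, 207 and 289 CPM in Jag1KO, and at 33.5, 129 and 34.3 CPM in Jag1KO+rescue. In Jag1KO+ctrl the values were 302, 512 and 49.6 CPM, in siCtrl 37.0, 162 and 64.5 CPM, and in siJag1 50.5, 434 and 60.5 CPM. Replicate 2 had the highest value in 5 of the 6 conditions, and only Jag1KO had it in replicate 3. Replicate 1 of Jag1KO and replicate 3 of Jag1KO+ctrl stood apart from the other libraries of their conditions with low MKI67.

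To ask whether the members followed proliferation regardless of condition, the slope of each gene on log2(MKI67 CPM + 1) was fitted in all 18 libraries with the condition held fixed (edgeR quasi-likelihood test, FDR over 12802 genes). The slope is the change of a gene on the log2 scale for each doubling of MKI67. In bulk RNA, fewer cells that express a gene and less of its RNA per cell cannot be told apart. Of the 10 members, 5 fell with MKI67 and 1 rose with an FDR below 0.05. The background was high, since 21.9% of all genes fell and 24.8% rose by the same rule.

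CCND2, the D-type cyclin that in other systems responds to PI3K-FOXO and Myc signaling, had the steepest slope of the members, −0.53 (SE 0.0412, 95% interval −0.61 to −0.44, FDR 3.12e-08, edgeR). It was at 41.5, 25.0 and 36.5 CPM in Jag1WT, at 48.5, 17.8 and 19.4 CPM in Jag1KO, at 70.1, 32.2 and 61.0 CPM in Jag1KO+rescue, at 7.1, 6.2 and 31.9 CPM in Jag1KO+ctrl, at 40.7, 21.0 and 35.8 CPM in siCtrl and at 34.9, 12.01 and 31.7 CPM in siJag1. In each condition the libraries with high MKI67 were the low ones, and CCND2 was lowest in the library with the highest MKI67 in 5 of the 6 conditions, Jag1KO being the exception. Only 32 of the 12802 genes had a lower slope. Slopes in each condition alone, here and below, are least-squares lines on log2(CPM + 1) through 3 libraries, a different fit from the edgeR slope. By this fit CCND2 went from −0.36 in Jag1WT to −0.69 in Jag1KO+ctrl, and whether conditions differ in this slope was not tested.

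CDKN1C followed closely, with a slope of −0.46 (SE 0.0555, 95% interval −0.58 to −0.34, FDR 6.31e-06, edgeR) and 45 genes below it. It stood at 2.08, 1.88 and 3.00 CPM in Jag1WT, at 4.44, 2.01 and 1.91 CPM in Jag1KO, at 3.54, 1.48 and 2.34 CPM in Jag1KO+rescue, at 1.20, 1.20 and 3.61 CPM in Jag1KO+ctrl, at 3.47, 1.55 and 2.36 CPM in siCtrl and at 3.12, 1.08 and 3.22 CPM in siJag1. CDKN1C was lowest in the library with the highest MKI67 in 5 of the 6 conditions, and in Jag1KO+ctrl replicates 1 and 2 tied at 20 reads each. Of the other CDK inhibitors, CDKN1B also fell and CDKN1A had no call, and differences in slope between genes were not tested.

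CDKN1B, whose protein is mostly controlled by degradation, fell by a smaller slope of −0.14 (SE 0.0271, 95% interval −0.19 to −0.08, FDR 0.000611, edgeR). In the order of the conditions above, it was at 48.0, 43.3 and 46.3 CPM, at 56.9, 45.8 and 47.7 CPM, at 71.1, 44.3 and 56.2 CPM, at 44.2, 34.8 and 50.7 CPM, at 51.0, 41.9 and 49.8 CPM and at 49.1, 35.2 and 54.5 CPM. Replicate 2 was the lowest library in every condition, and the slope was below 0 in all 6 of them.

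For CDKN1A, a CDK inhibitor induced by many kinds of stress, the slope was 0.03 (95% interval −0.10 to 0.15, FDR 0.739, edgeR). Levels stood at 308, 469 and 343 CPM in Jag1WT, at 240, 428 and 331 CPM in Jag1KO, at 326, 402 and 379 CPM in Jag1KO+rescue, 187, 181 and 296 CPM in Jag1KO+ctrl, 348, 486 and 397 CPM in siCtrl and 318, 280 and 395 CPM in siJag1. Replicate 2 was thus the highest library in 4 conditions and the lowest in Jag1KO+ctrl and siJag1, the conditions with the highest MKI67 values. Slopes within single conditions were above 0 in Jag1WT, Jag1KO, Jag1KO+rescue and siCtrl, from 0.10 to 0.30, and below 0 in Jag1KO+ctrl (−0.22) and siJag1 (−0.11).

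BTG1 had the same split. Its slope over all conditions was 0.01 (95% interval −0.14 to 0.16, FDR 0.910, edgeR), with values from 0.13 to 0.35 in the same 4 conditions, −0.30 in Jag1KO+ctrl and −0.09 in siJag1. BTG1 stood at 284, 468 and 331 CPM in Jag1WT, at 286, 511 and 325 CPM in Jag1KO, at 328, 425 and 397 CPM in Jag1KO+rescue, 244, 168 and 362 CPM in Jag1KO+ctrl, 295, 451 and 358 CPM in siCtrl and 319, 300 and 429 CPM in siJag1. Differences of these slopes between conditions were not tested.

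CCND1, the most abundant D-type cyclin here and a common oncogene in breast cancer, fell slightly with MKI67, with a slope of −0.12 (SE 0.0348, 95% interval −0.19 to −0.05, FDR 0.00957, edgeR). Its CPM ranged from 294 in replicate 2 of Jag1KO to 542 in replicate 1 of Jag1KO+rescue, and the slope was below 0 in 5 conditions and 0.02 in Jag1KO+ctrl. For CCND3 the slope was 0.05 (95% interval −0.04 to 0.15, FDR 0.340), with 3 conditions below 0 and 3 above.

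CCNG2 was the one member that rose with MKI67, with a slope of 0.15 (SE 0.0525, 95% interval 0.04 to 0.26, FDR 0.0300, edgeR). It was at 57.4, 55.3 and 73.3 CPM in Jag1WT, at 37.7, 63.6 and 66.2 CPM in Jag1KO, at 29.98, 64.5 and 55.8 CPM in Jag1KO+rescue, at 110, 90.1 and 65.5 CPM in Jag1KO+ctrl, at 52.0, 58.1 and 52.98 CPM in siCtrl and at 54.3, 56.2 and 52.3 CPM in siJag1. The spread was small in both siRNA conditions, and Jag1WT, with a slope of −0.15, went the other way. This call was lost without Jag1KO replicate 1 (slope 0.11), without Jag1KO replicate 3 (0.14), without Jag1KO+rescue replicate 2 (0.13) and without Jag1KO+ctrl replicate 3 (0.13), and also without the filter on low values (0.14).

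TP53INP1 fell with a slope of −0.15 (SE 0.0372, 95% interval −0.23 to −0.08, FDR 0.00273, edgeR) and was below 0 in all 6 conditions, within a narrow range of 14.9 to 29.9 CPM. RBL2 had a slope of 0.07 (95% interval −0.01 to 0.14, FDR 0.134), and its CPM lay between 18.9 and 35.4.

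**Figure D2:**
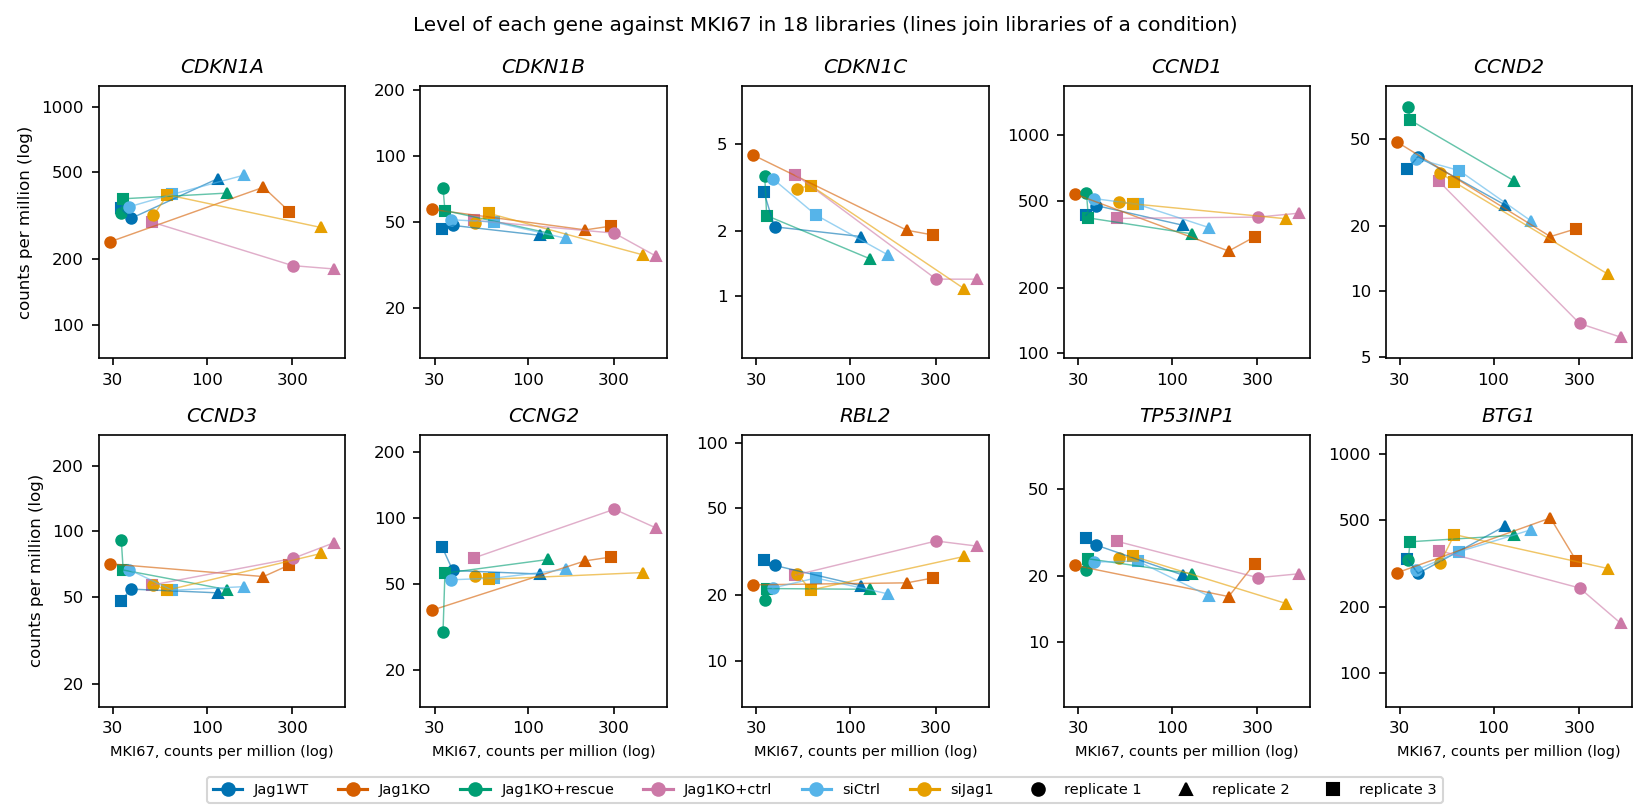
CPM of each gene (vertical, log axis spanning the same fold in each panel) against MKI67 CPM in the same library (horizontal, log axis), colored by condition, with circles, triangles and squares for replicates 1, 2 and 3 and lines joining the libraries of a condition. By the line fitted in each condition, CCND2 and CDKN1C fall with MKI67 in all 6. CDKN1A and BTG1 rise in 4 conditions and fall in Jag1KO+ctrl and siJag1. Not every joined line runs one way, for example that of CCND2 in Jag1WT and that of CDKN1A in Jag1KO.

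**Figure D3:**
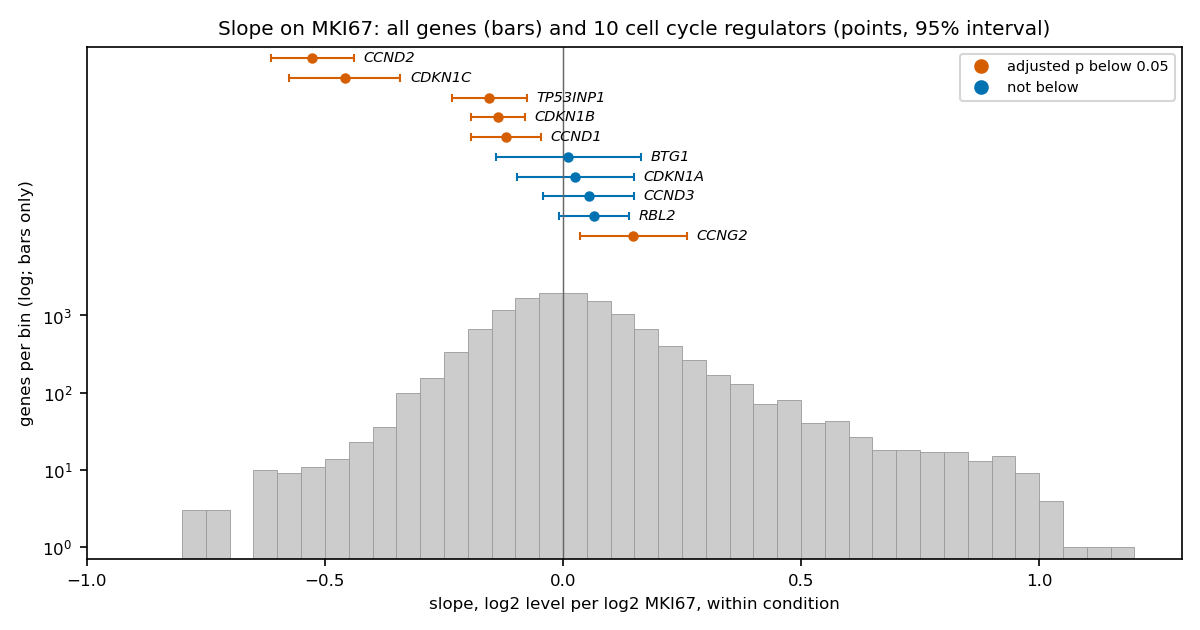
Slopes on log2(MKI67 CPM + 1) with the condition held fixed: gray bars count all 12802 genes (log axis, bars only), and points give the members with their 95% interval, orange for an FDR below 0.05. CCND2 and CDKN1C lie in the far left tail, with 32 and 45 genes below them, and the other members lie among the bulk of genes.

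Because MKI67 was highest in replicate 2 of most conditions, the slope was also fitted with the replicate number as a further term. With this replicate block, only CDKN1C and CCND2 of the members passed the FDR of 0.05 and fell, against 12.2% of all genes that fell by that rule. The slopes of CDKN1B (−0.08), CCND1 (−0.07), TP53INP1 (−0.08) and CCNG2 (0.21) kept their sign and no longer passed. The block takes the difference between replicate numbers to be the same in all conditions. The slopes of CDKN1B, CCND1 and TP53INP1 were smaller in size than without it. For these genes a relation to MKI67 and a difference between replicate numbers cannot be told apart. The slope of CCNG2 was larger than without the block (0.15), and its call was lost all the same. Leaving out Jag1KO replicate 1 also ended the call of CCND1 (slope −0.08).

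The same relation was computed as a correlation within conditions for the 10 members in 18 libraries. It used deviations of log2(CPM + 1) from the condition means. Exact permutation p values came from all 46656 rearrangements of MKI67 within conditions, two-sided and not adjusted over the 10 relations. The FDR above belongs to the slope test in the same libraries and does not cover them. The rearrangements leave out the replicate number, so these p values do not tell a relation to MKI67 from a difference between replicate numbers. Pearson's r was −0.965 for CCND2 (exact p = 0.000236), with a Spearman's rho of −0.928 (exact p = 0.000364). For CDKN1C r was −0.952 (exact p = 6.43e-05) and rho −0.942 (exact p = 4.29e-05), and for CDKN1B r was −0.854 (exact p = 0.000493) and rho −0.878 (exact p = 0.000514). The 2 libraries farthest from the median of MKI67, replicate 2 of Jag1KO+ctrl and of siJag1, did not carry these relations, and without them r was −0.950 for CCND2, −0.933 for CDKN1C and −0.767 for CDKN1B in 16 libraries.

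TP53INP1 (r −0.793, exact p = 0.00433, rho −0.721, exact p = 0.0110) and CCND1 (r −0.701, exact p = 0.00446, rho −0.672, exact p = 0.00849) came next, with r of −0.709 and −0.783 without the 2 libraries. CCNG2 had an r of 0.584 (exact p = 0.0367) and a rho of 0.548 (exact p = 0.0409), and an r of 0.670 without them. RBL2, CCND3, CDKN1A and BTG1 had r of 0.424, 0.251, 0.105 and 0.0145, with exact permutation p from 0.188 to 0.966. For CDKN1A and BTG1, r without the 2 libraries was 0.439 and 0.415, so the value near 0 rested on those libraries.

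Some members ran together. CDKN1A and BTG1 had the highest Pearson correlation of any pair of members over the 18 libraries (r 0.908, rho 0.872), followed by CDKN1B with CCND2 (0.818 and 0.808) and CDKN1B with CDKN1C (0.798 and 0.893). CCND2 ran against CCNG2 (r −0.767) and CDKN1A against RBL2 (r −0.748). All such values share libraries, depth and the differences between conditions, and they are given as a description.

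The genes whose profiles of log2(CPM + 1) over the 18 libraries were most like those of the members were TRIM25 (r 0.961) and FBXL13 (0.946) for CDKN1A, FOXO3 (0.954) and ZNF746 (0.952) for CDKN1B, and C15orf61 (0.910) and TMEM150A (0.893) for CDKN1C. CCND1 was most like CCDC88C (0.929) and GIT1 (0.921), CCND2 like TWNK (0.980) and POLR3D (0.976), and CCND3 like CCNE1 (0.940) and LARS2 (0.918). CCNG2 was most like ENO2 (0.940), a glycolytic enolase, and EGLN1 (0.939), a prolyl hydroxylase of the oxygen-sensing pathway. RBL2 was most like LGR4 (0.940) and ZMYM3 (0.935), TP53INP1 like MIRLET7BHG (0.845) and MN1 (0.844), and BTG1 like USP53 (0.968) and RND1 (0.959).

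Wider lists of the pathway showed how the slope on MKI67 was spread. Of 17 proliferation genes, 16 other than MKI67 were tested, and 13 rose and none fell, with a median slope of 0.77 against 0.00 over all genes. CCNA2 (slope 0.79), TOP2A (0.96) and FOXM1 (0.77), a cyclin of S phase and G2, a topoisomerase and a transcription factor of G2 and mitosis, had the highest ratios of slope to error. The genes that did not pass were the replication licensing factors MCM2 (0.15), MCM3 (0.20) and MCM6 (0.12).

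In the Cyclin D-CDK-RB axis, 18 of 21 genes were tested, 11 rose and 1 fell, with a median slope of 0.22, against 24.8% and 21.9% of all genes. CKS1B, a CDK subunit needed to degrade CDKN1B, had a slope of 0.32, CDK2 of 0.38 and the repressor E2F8 of 0.91. The one that fell was CDK4 (−0.08), a kinase partner of the D-type cyclins, and CDK6 was at 0.02 without a call. CDKN2A and CDKN2B, which encode inhibitors of CDK4 and CDK6, had no row under these symbols among the genes counted. Of the other CDKN2 genes, CDKN2C rose (0.92, FDR 1.37e-06, edgeR) at 1.13 to 25.05 CPM, and CDKN2D was at −0.02 without a call.

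In the list of DREAM components and antiproliferative partners, 10 genes fell and 4 rose among 18 tested, with a median slope of −0.07, and over all genes the shares were 21.9% and 24.8%. TOB2, a relative of BTG1 (slope −0.40), and FOXO3 (−0.17) and FOXO1 (−0.32), factors that switch on CDKN1B and CCNG2 in other systems, had the highest ratios of slope to error, all downward. E2F5 (−0.22) and E2F4 (−0.07), the repressor E2Fs that pair with RBL2, fell as well, while TFDP1 (0.15), TFDP2 (0.17), LIN9 (0.20) and CNOT7 (0.12) rose. BTG2 was below the filter.

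The second question was whether the members differed with JAG1. High JAG1 was compared with low in Jag1WT against Jag1KO (the knockout comparison), in Jag1KO+rescue against Jag1KO+ctrl (the rescue comparison) and in siCtrl against siJag1 (the siRNA comparison), with a call at an FDR below 0.05 and a fold change above 1.5 over all genes tested (edgeR quasi-likelihood test). No call was made for any of the 10 members in the knockout, the rescue or the siRNA comparison. Calls were rare in general, at 0.704%, 0.00776% and 0.0156% of the genes tested, that is 91, 1 and 2 genes. JAG1 itself was among them in Jag1WT against Jag1KO (log2 fold change 1.71, FDR 0.0138) and in the rescue (2.22, FDR 0.0226), and for the siRNAs (1.68) its FDR was 0.103, or 0.0214 with the replicate block. Other tools gave 0 members with limma in all 3 comparisons, and DESeq2 called 2 members, in the rescue only.

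**Figure D4:**
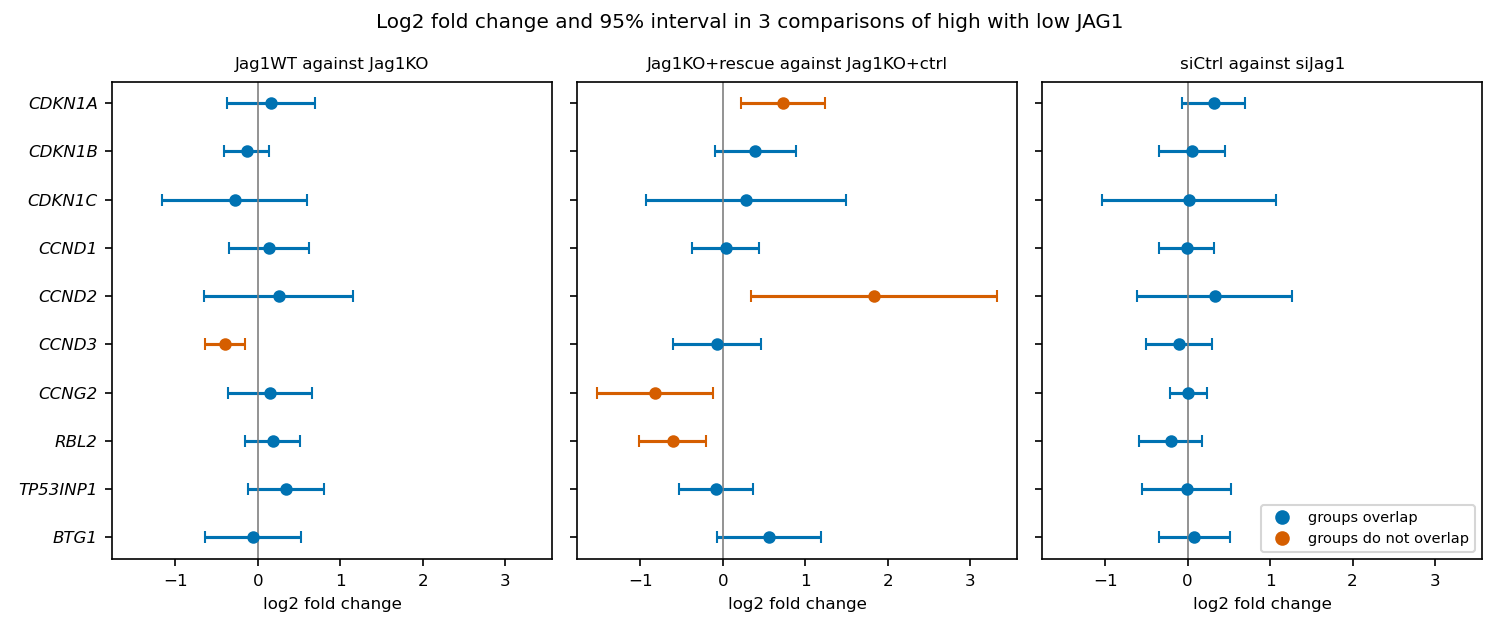
Log2 fold change (points) and 95% interval (bars) of each gene in the 3 comparisons of high with low JAG1, orange where the 3 libraries of one group all lie beyond the 3 of the other. In Jag1KO+rescue against Jag1KO+ctrl 4 genes are orange, against 1 (CCND3) in the knockout comparison and 0 in the siRNA comparison. For CCND2 and CCNG2 in the rescue comparison the groups nearly touch.

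In Jag1WT against Jag1KO, 1 of the 10 members had an unadjusted p under 0.05, near the 8.75% of all genes. This was CCND3, at 54.3, 52.2 and 47.9 CPM with JAG1 intact and at 70.9, 62.0 and 70.1 CPM in Jag1KO. The groups did not overlap, as was so for 13.8% of all genes, and the log2 fold change was −0.40 (95% interval −0.65 to −0.15, FDR 0.247, edgeR). The others overlapped, with log2 fold changes from −0.28 for CDKN1C (interval −1.17 to 0.60) to 0.34 for TP53INP1 (−0.12 to 0.80) and a median over the members of 0.14 against −0.01 over all genes.

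CCND2 differed by 0.26 in this comparison (interval −0.65 to 1.16). Without replicate 1 of Jag1KO, which had MKI67 at 28.9 CPM and CCND2 at 48.5 CPM, the difference was 0.87 and CCND2 was called, as were 6.58% of all genes. The intervals leave differences of more than 2-fold for CCND2 and CDKN1C compatible with these libraries, while for CDKN1B (−0.13, interval −0.41 to 0.14) and RBL2 (0.18, −0.15 to 0.52) the interval was narrower.

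The largest differences were seen in Jag1KO+rescue against Jag1KO+ctrl. The libraries of both groups were apart for 4 members, as they were for 32.4% of all genes, and the same 4 had an unadjusted p under 0.05, as did 30.7% of all genes, without passing the FDR. CCND2 was at 70.1, 32.2 and 61.0 CPM against 7.1, 6.2 and 31.9 CPM, a log2 fold change of 1.84 (95% interval 0.34 to 3.33, FDR 0.123, edgeR). CDKN1A was at 326, 402 and 379 CPM against 187, 181 and 296 CPM, a log2 fold change of 0.73 (0.22 to 1.24, FDR 0.110). Both were lower in every Jag1KO+ctrl library than in any Jag1KO+rescue library. For CCND2 the gap was narrow, since the highest Jag1KO+ctrl library was at 31.9 CPM and the lowest Jag1KO+rescue library at 32.2 CPM. The gap was also narrow for CCNG2, with 64.5 CPM in the highest Jag1KO+rescue library and 65.5 CPM in the lowest Jag1KO+ctrl library.

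RBL2 and CCNG2 stood on the other side. RBL2 was at 18.9, 21.3 and 21.5 CPM in Jag1KO+rescue and at 35.4, 33.6 and 24.7 CPM in Jag1KO+ctrl (log2 fold change −0.61, interval −1.02 to −0.20, FDR 0.108, edgeR), and CCNG2 gave −0.82 (−1.52 to −0.12, FDR 0.130). BTG1 (0.56, −0.07 to 1.20) and CDKN1B (0.40, −0.09 to 0.88) overlapped between groups. MKI67 moved with these values, at −2.13 on the log2 scale (−4.11 to −0.14, FDR 0.147). In a fit of all 18 libraries the 4 members were called, as were 16.6% of all genes. With MKI67 as a covariate CCND2 (1.11, from 1.82 without it) and CDKN1A (0.75, from 0.71) were called. RBL2 (−0.50, from −0.63) kept an FDR of 0.0350 and missed the fold threshold, CCNG2 (−0.57, from −0.85) had an FDR of 0.0889, and the share of all genes was 9.47%.

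Replicate 3 of Jag1KO+ctrl, with MKI67 at 49.6 CPM against 302 and 512 CPM in the other libraries, weighed on these counts. So did the tool and the set of libraries fitted. Without it 5 members were called, CCND2 at 3.02, CDKN1A at 1.00, BTG1 at 0.90, CCNG2 at −0.99 and RBL2 at −0.75, as were 28.5% of all genes, and the lone pair of Jag1KO+ctrl libraries left both had high MKI67. DESeq2 on all 6 libraries called CDKN1A (0.74) and RBL2 (−0.60), and 12.2% of all genes. A share of 4 or 5 in 10 members is read against these backgrounds.

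In the siRNA comparison, no member had an unadjusted p under 0.05, against 3.85% of all genes, and none was apart between groups, against 10.5% of all genes. The log2 fold changes lay between −0.21 for RBL2 (interval −0.59 to 0.17) and 0.33 for CCND2 (−0.62 to 1.27). CDKN1A was at 0.32 (−0.06 to 0.70), and CCNG2, with 52.0, 58.1 and 52.98 CPM against 54.3, 56.2 and 52.3 CPM, at 0.01 (−0.22 to 0.24). With the replicate block, since libraries of the same number count as paired here, 1 member had an unadjusted p under 0.05, against 7.89% of all genes, and none was called.

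In 2 further comparisons, of Jag1KO+ctrl with Jag1KO and of siCtrl with Jag1WT, JAG1 was not meant to differ. Without the replicate block no member was called in either, and neither was any other gene (0% of all genes, edgeR). With limma the counts of members were 0 as well. With the block, 1 of 12847 genes, not a member, was called in siCtrl against Jag1WT, whose libraries count as paired here. Without replicate 3 of Jag1KO+ctrl, 343 of 12874 genes were called against Jag1KO, none of them a member. In that fit 6 of the 10 members had an unadjusted p under 0.05, and the share of all genes at that level is not given here. With all 6 libraries of Jag1KO+ctrl and Jag1KO, 2 of the 10 members had an unadjusted p under 0.05, against 5.8% of all genes. These were RBL2 (log2 fold change 0.43, interval 0.02 to 0.83) and CCNG2 (0.65, 0.04 to 1.26), the genes that were high in Jag1KO+ctrl in the rescue comparison, and both comparisons share the Jag1KO+ctrl libraries. CDKN1A (−0.60, −1.23 to 0.02) and CCND2 (−0.94, −2.57 to 0.69) did not reach that level. In siCtrl against Jag1WT no member had an unadjusted p under 0.05 without the block (1.4% of all genes) and 5 had with it (9.76% of all genes), none of them called.

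Whether the 3 JAG1 comparisons differed from each other was tested with an interaction term over 12 libraries for each of the 3 pairs. No member was called in any pair (edgeR, FDR below 0.05), and 0.591%, 0.109% and 0.148% of all genes were called for Jag1WT against Jag1KO minus the rescue, Jag1WT against Jag1KO minus the siRNA comparison and the rescue minus the siRNA comparison. By unadjusted p under 0.05 there were 2, 0 and 1 members in these pairs, against 22.2%, 3.89% and 20% of all genes, and limma also called 0. Without replicate 3 of Jag1KO+ctrl, CCND2 (−2.74) and RBL2 (0.96) were called in the first pair, as were 19.8% of all genes, and CCND2 in the third, as were 15.1%.

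The wider lists were near 0 calls too. In Jag1WT against Jag1KO 1 of 17 proliferation genes was called, the replication licensing factor MCM2 (−0.78, SE 0.128, FDR 0.0400, edgeR), and in the rescue and the siRNA comparison none was. All 17 had negative log2 fold changes in each of the 3 comparisons, with medians of −1.25, −1.57 and −0.69 against about 0 over all genes (−0.01, −0.002 and −0.01), and the list was chosen with such results known. No gene of the Cyclin D-CDK-RB axis or of the DREAM list was called in any of the 3 comparisons, and their medians lay between −0.44 and 0.38. By unadjusted p under 0.05 there were 7, 8 and 0 of 18 genes of the axis and 1, 7 and 1 of 18 of the DREAM list in the knockout, rescue and siRNA comparisons, where 8.75%, 30.7% and 3.85% of all genes had such a p.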

How the data were processed

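The deposited counts are whole reads per gene, made by the authors with stranded mRNA libraries and hg38. Their processing notes name featureCounts and edgeR 3.28.0, and the aligner is not given in the sources used here. The deposited CPM are a normalized signal, read counts that the authors scaled by TMM-normalized library size, so columns summed to 938087 to 1074370. The deposited RPKM gave only the length of each gene, and 3 RPKM columns that matched no label were not used. Of the genes, 292 had no symbol (at most 0.0442% of reads).

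Counts were tested with edgeR 4.0.16 (TMM, robust quasi-likelihood) in R 4.3.3, with limma 3.58.1 on log2(CPM + 1) and DESeq2 1.42.0 as alternatives. Genes above 1 CPM in at least 3 of 6, 6 of 12 or 9 of 18 libraries were tested, the FDR is by Benjamini-Hochberg over all of them, and intervals are 95%. Slopes and differences between comparisons had no fold threshold. The script was tested on simulated data.

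Replicate numbers were checked by the correlation of deviations from group means. They were above 0.1 for all 3 pairs in siCtrl and siJag1 (0.543, 0.523 and 0.263) and in siCtrl and Jag1WT (0.597, 0.714 and 0.213), which count as paired, and not in the other comparisons. The labels name biological replicates and not how cultures were made, so p values measure the spread between these libraries. The members, lists and tests were chosen with earlier results of these data known. Besides the members, MKI67 and JAG1, genes were named from the lists by the largest changes called or the largest slope relative to its error, and by likeness of profile. Of the lists, genes outside that rule were named after their values were seen (CDK4, CDK6, CDKN2C, CDKN2D, E2F4, E2F5, TFDP1, TFDP2, LIN9, CNOT7, MCM3 and MCM6). A further list is not reported here.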

Additional observations from a re-analysis of the deposited data

How the results depend on the processing

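The number of members called stayed at 0 in Jag1WT against Jag1KO and siCtrl against siJag1 under limma, DESeq2, RLE size factors, no filter, no fold threshold, the replicate block and fits of all 18 libraries. In Jag1KO+rescue against Jag1KO+ctrl it was 2 with DESeq2, 4 with all 18 libraries and 2 with MKI67 added, and 0 under the others. Leaving out 1 library gave 0 to 1 members in Jag1WT against Jag1KO, 0 to 5 in the rescue and 0 to 3 over the 3 differences between comparisons, and 0 elsewhere. For the slope, 6 members were called in the main analysis, 2 with the replicate block, 5 without the filter (CCNG2 lost), 7 without the condition term (RBL2 gained) and 4 to 7 without single libraries. Calls over all genes moved more, for example to 318 with the replicate block in Jag1WT against Jag1KO, to 1572 with DESeq2 in the rescue and to 3494 with the replicate block for the slope, and the differences between comparisons gave 592 with the replicate block in place of 109. The cause of these shifts was not tested. The replicate block changed no other call of a member.

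Values of members that were not called changed sign in places. With MKI67 added to the fit of 18 libraries, CCND2 was at −0.23 in Jag1WT against Jag1KO, CDKN1C at −0.48, CCND1 at −0.24 and CCND3 at 0.030 in the rescue, and CDKN1C at −0.19 and CDKN1B at −0.020 in siCtrl against siJag1. The slopes of CDKN1A and BTG1 were −0.095 and −0.13 with the replicate block and −0.046 and −0.024 without the condition term.

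Without single libraries, the values in Jag1WT against Jag1KO ran from −0.039 to 0.38 for CDKN1A, −0.52 to 0.24 for CDKN1C, −0.033 to 0.42 for CCND1, −0.075 to 0.29 for CCNG2 and −0.29 to 0.24 for BTG1. In the rescue they ran from −0.063 to 1.03 for CDKN1C, −0.14 to 0.16 for CCND1, −0.28 to 0.091 for CCND3 and −0.19 to 0.12 for TP53INP1. In siCtrl against siJag1 they ran from −0.11 to 0.18 for CDKN1B, −0.35 to 0.27 for CDKN1C, −0.11 to 0.12 for CCND1, −0.025 to 0.58 for CCND2, −0.21 to 0.10 for CCND3, −0.034 to 0.039 for CCNG2, −0.21 to 0.15 for TP53INP1 and −0.083 to 0.26 for BTG1. The slope ran from −0.033 to 0.12 for CDKN1A and −0.041 to 0.11 for BTG1. The signed values that the text prints for these genes in those comparisons therefore give no settled direction.

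With 3 libraries per condition, the intervals of CCND2 and CDKN1C are wide in every JAG1 comparison. MKI67 varied 3.48-fold to 10.3-fold within a condition, and CDKN1C had 20 to 68 reads per library against 103 to 1040 for CCND2. What made the intervals wide was not tested.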
